A study of Rattus norvegicus with 24 samples.

Results

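Renal transcripts of cytochrome P450 families 2 and 4 were followed across 24 two-colour cDNA arrays of rat kidney. Members were all probes with a value on at least 1 array and a single platform gene symbol starting with Cyp2 or Cyp4 and a letter. The rule found 10 genes, each with 1 probe, of 1313 genes with a single symbol and a value; 8 were of family 2 and 2 of family 4. They were 10 of 1561 probes with a value. Values were present on 20 to 24 arrays for Cyp2c23, Cyp2c6v1, Cyp2e1, Cyp4b1, Cyp2f4, Cyp4f1, Cyp2d4 and Cyp2d2, which were tested, and on 2 arrays for Cyp2c12 and 1 for Cyp2a3, which were not. Cyp2c22 and Cyp4f4 were listed without a value.

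Each array carried 2 RNAs. The comparisons were strain 13 over strain SS on HS, strain 13 over SS on LS, HS over LS in strain 13, and HS over LS in SS, after 2 weeks. SS is the Dahl salt-sensitive rat, and strain 13 is known to be an SS line whose chromosome 13 was replaced from a different strain; HS and LS stand, by general knowledge of the study, for high and low salt diets. Both strains therefore share the SS background outside chromosome 13, and 0 of the 10 members lie on chromosome 13 in the RefSeq annotation of GRCr8, with 6 on chromosome 1, 1 on chromosome 5 and 3 on chromosome 7. Every comparison had 3 replicates, each hybridised forward and with the dyes swapped, giving 12 RNA pairs. The labels state neither age nor sex, and do not say that replicates are different animals. The p-values therefore cover only sample-to-sample spread, which could be technical.

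Cytochrome P450 enzymes are haem proteins of the endoplasmic reticulum that insert oxygen into lipids, steroids and drugs, with electrons supplied by the reductase Por. In the kidney, enzymes of the Cyp2c subfamily convert arachidonic acid to epoxyeicosatrienoic acids, which relax vessels and lower sodium transport. Enzymes of family 4 hydroxylate the end of the fatty acid chain, a reaction that makes the vasoconstrictor 20-hydroxyeicosatetraenoic acid from arachidonic acid. Many of these enzymes are most abundant in the proximal tubule.

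All values are deposited log ratios whose base is not given in the sources used here, so no fold change is printed, and a value below 0 means lower in strain 13 or on HS. This direction is likely rather than settled. The 13 titles that name both RNAs do so by dye and not by channel number, and of these 1 is a diet array. Channel 1 was taken as strain 13 or HS in both dye orientations. The diet difference between strains and the strain difference between diets correlated at 0.58 across 1164 probes as labelled (probes are not independent replicates), against -0.23 to 0.24 when some comparisons were turned, while a turn of all signs at once would not be seen. Arrays held 726 to 1402 values (median 1202.5). Among the SS diet arrays, 5 titles gave no strain and the sixth opened like those of strain 13 while naming SS in both channels. The series title places the tissue in the renal medulla and the labels say kidney; 15 of 29 proximal tubule marker genes and 9 of 20 markers of the thick limb, distal tubule and collecting duct had a value, and ratios give no level by which to tell the zones apart.

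Between strains, Cyp2c23 and Cyp2e1 were lower in strain 13 than in SS on HS, and these were the 2 of 8 tested members that passed the test there. Each comparison was tested with limma on the replicate means, with Benjamini-Hochberg adjustment over all probes tested and a threshold of 0.05. On HS, 6% of 1350 probes were called in either direction and 2.37% as lower. On LS, 0 of 8 members were called, against 0% of 1229 probes; at an unadjusted p below 0.05 there were 3 members and 21.8% of all probes. The median log ratio of the 8 members was -0.40 on HS and -0.40 on LS, against 0.02 over all probes on each diet. Of the 8, 5 lay below 0 on HS and 6 on LS, against 45.1% and 44.6% of all probes.

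**Figure D1:**
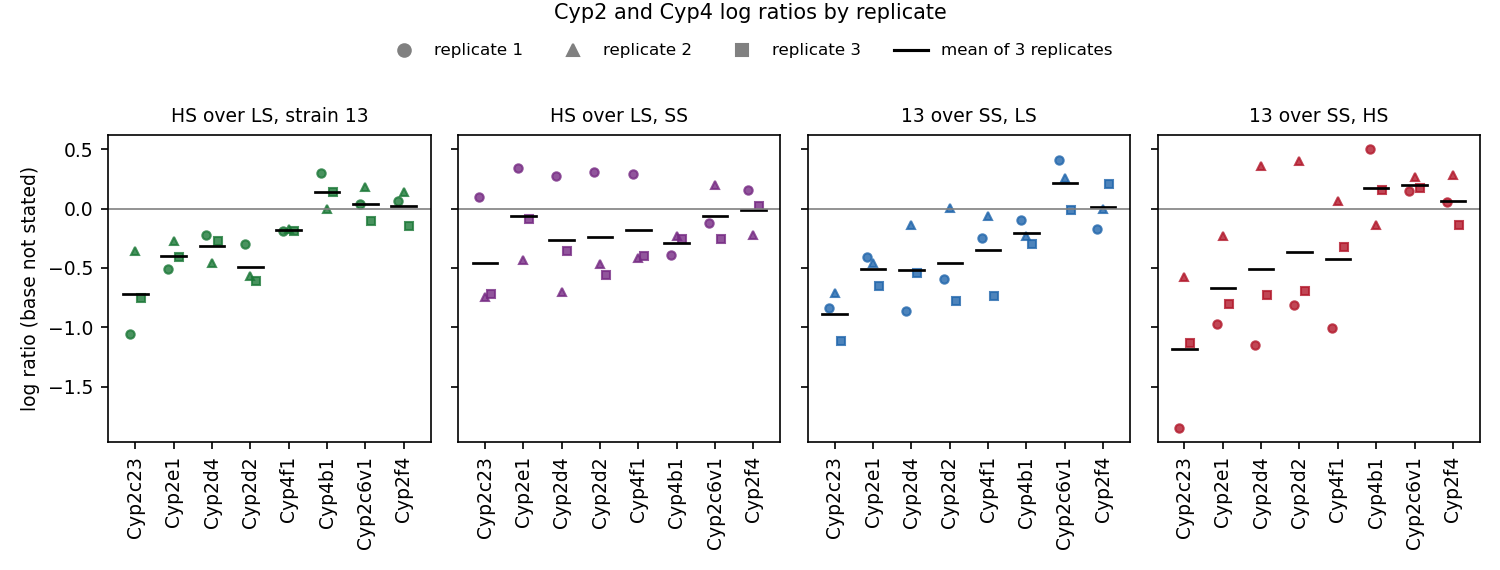
Log ratio (vertical axis, base not stated) of the 8 tested Cyp2 and Cyp4 members in each of the 4 comparisons; symbols mark the 3 replicates and bars their mean. Cyp2c23 has the lowest mean of the 8 in every panel, and replicate 1 of the SS diet comparison lies above 0 for Cyp2c23, Cyp2e1, Cyp2d4, Cyp2d2 and Cyp4f1.

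Cyp2c23 encodes an arachidonic acid epoxygenase, the main Cyp2c enzyme of rat kidney. On HS its log ratios of strain 13 over SS were -1.845, -0.58 and -1.13 in replicates 1, 2 and 3, and on LS they were -0.835, -0.715 and -1.115. All 6 RNA pairs were thus below 0, with the widest spread between replicates 1 and 2 on HS. The mean was -1.18 ± 0.63 on HS (SD, n = 3; limma adjusted p = 0.0197) and -0.89 ± 0.21 on LS (SD, n = 3; limma adjusted p = 0.0904, not called). It ranked second from the lowest among 1350 probes on HS and among 1229 on LS; were all signs turned, these and the later ranks would count from the highest.

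Cyp2e1 encodes the enzyme that oxidises ethanol, acetone and other small molecules. Its log ratios of strain 13 over SS were -0.975, -0.23 and -0.805 on HS and -0.41, -0.46 and -0.65 on LS. Again all 6 pairs were below 0. The mean was -0.67 ± 0.39 on HS (SD, n = 3; limma adjusted p = 0.0281) and -0.51 ± 0.13 on LS (SD, n = 3; limma adjusted p = 0.11, not called). With 3 pairs both calls on HS depended on the setting. Without replicate 2 Cyp2c23 was at -1.49 and Cyp2e1 at -0.89 (limma adjusted p = 0.0685 for both), and without replicate 3 at -1.21 and -0.60 (limma adjusted p = 0.16 and 0.208). With the 3 HS values fitted alone the means stayed at -1.18 and -0.67 (limma adjusted p = 0.0965 and 0.105). In these settings 0 of 1307, 0 of 1258 and 0 of 1350 probes were called, so the loss was not particular to these genes. Without replicate 1, Cyp2c23 was called (-0.86, limma adjusted p = 0.0481) and Cyp2e1 was not (-0.52, limma adjusted p = 0.125), with 27 of 1289 probes called. With the replicate number as a block, Cyp2c23 was called (limma adjusted p = 0.039) and Cyp2e1 was not (limma adjusted p = 0.0592), with 40 of 1350 probes called.

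The dye orientations gave the same sign for both genes. Cyp2c23 averaged -0.98 on the forward and -1.39 on the dye-swap arrays of the HS comparison, and -0.92 and -0.85 on those of the LS comparison. Cyp2e1 averaged -0.65 and -0.69 on HS and -0.53 and -0.48 on LS. Part of the titles may mark a batch: it is shared by replicates 1 and 2 on HS, and by replicate 3 on HS and on LS, where Cyp2c23 stood at -1.13 and -1.115. Within the mark of replicate 3 the strain ratio was thus below 0 on both diets.

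**Figure D2:**
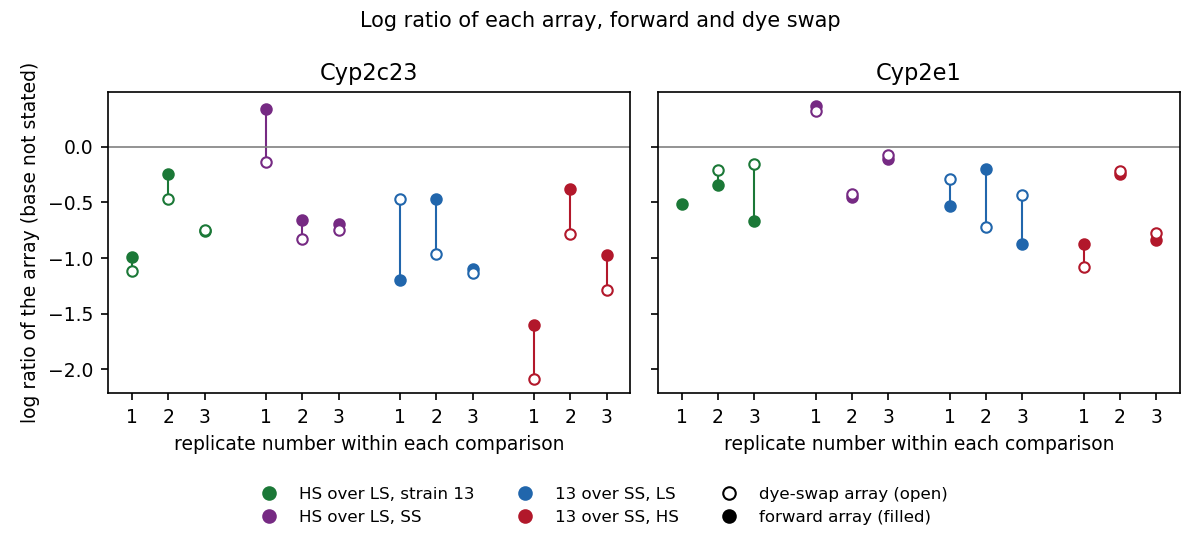
Log ratio of every array (vertical axis, base not stated) for Cyp2c23 and Cyp2e1, by replicate number within each comparison; filled points are forward arrays, open points dye-swap arrays, and lines join the arrays of a replicate. All arrays of the strain comparisons lie below 0 for both genes.

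A mean of the strain comparison over both diets was added after the members' values had been seen. By this estimate Cyp2c23 had a log ratio of -1.04 ± 0.45 (SD over 6 pairs), the lowest of 1203 probes (limma adjusted p = 0.00566). Cyp2e1 had -0.59 ± 0.27 (SD over 6 pairs; limma adjusted p = 0.00703) and ranked 13 from the lowest. Both were below 0 in 6 of 6 pairs, for which the exact two-sided sign-flip test gave p = 0.0312, the smallest it can give. This p is unadjusted and treats the pairs as independent. It uses the pairs in which both genes had already been seen to be low, so it adds no separate support. With 15% of all probes called in either direction and 6.32% as lower, 2 of 8 members were called, both lower. Without replicate 3 Cyp2c23 was at -0.99 and Cyp2e1 at -0.52 and neither was called (limma adjusted p = 0.0734 and 0.105); 5 of 1078 probes were called in all. Without replicate 2 there were 4 members called (Cyp2c23, Cyp2e1, Cyp2d4 and Cyp2d2) and 48 of 1111 probes.

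**Figure D3:**
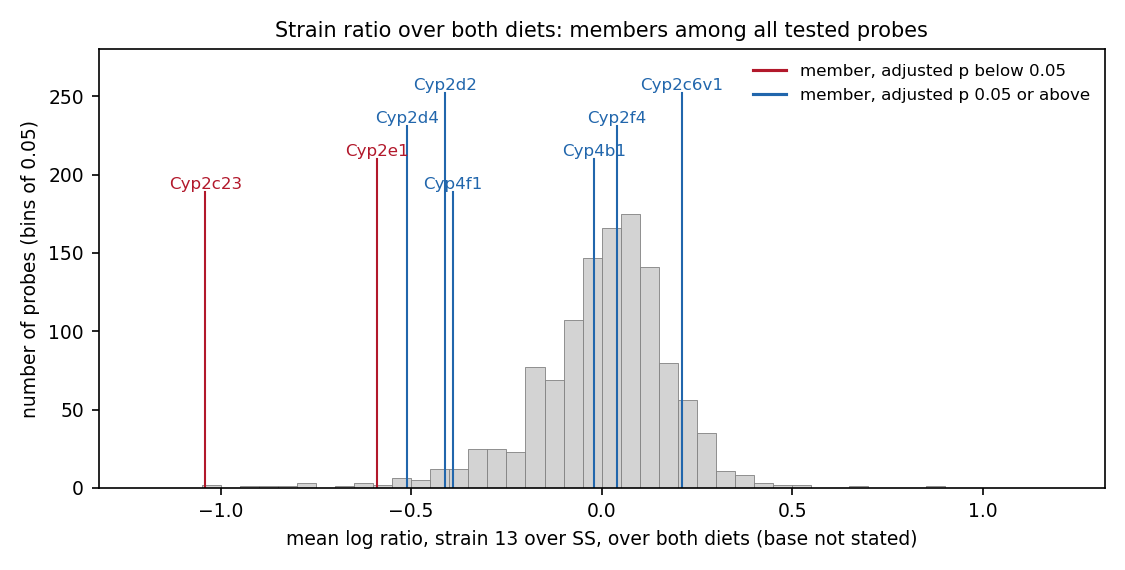
Histogram of the mean log ratio of strain 13 over SS across both diets for 1203 probes (horizontal axis, base not stated), with vertical lines at the 8 members. Cyp2c23 at -1.04 lies at the low end of all probes and Cyp2e1 at -0.59 is the other member past the test.

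The promoters of these genes are printed because theirs are the members that differed between strains. Sequences are from RefSeq (GRCr8), from 250 bases before to 50 bases after the annotated start, 5′ to 3′ on the gene's strand, and 9 of the 10 members had an entry. The Cyp2c23 window is chr1:252863018-252863317 on the minus strand and the Cyp2e1 window chr1:205269717-205270016 on the plus strand. Capitals mark matches to 5 motifs searched on both strands: AGGTCA (a nuclear receptor half-site), a direct repeat of this half-site with 1 base between, GTTAAT (an HNF1 half-site), TATAAA (the TATA box) and CCAAT (the CCAAT box, read as ATTGG on the other strand).
Cyp2c23: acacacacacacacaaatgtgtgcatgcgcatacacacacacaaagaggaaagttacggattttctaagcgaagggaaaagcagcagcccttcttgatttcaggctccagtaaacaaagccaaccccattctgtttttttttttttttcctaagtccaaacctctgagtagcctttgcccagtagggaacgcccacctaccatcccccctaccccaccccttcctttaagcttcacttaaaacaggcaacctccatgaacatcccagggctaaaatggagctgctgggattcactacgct
Cyp2e1: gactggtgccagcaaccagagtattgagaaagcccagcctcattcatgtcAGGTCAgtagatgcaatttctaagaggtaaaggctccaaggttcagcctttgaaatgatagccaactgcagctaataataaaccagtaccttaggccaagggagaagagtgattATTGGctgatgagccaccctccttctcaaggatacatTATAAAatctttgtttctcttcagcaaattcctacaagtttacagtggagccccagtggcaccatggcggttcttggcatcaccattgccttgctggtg
The Cyp2e1 window held AGGTCA at -200 to -195, CCAAT on the opposite strand at -86 to -82 and TATAAA at -49 to -44, counted from the start. The Cyp2c23 window held none of the 5 motifs, which says only that these letters are not in it. Of 33469 RefSeq promoters of this length, 16.2% held AGGTCA, 0.0538% its direct repeat, 7.45% GTTAAT, 14.2% TATAAA and 37.5% CCAAT. Cyp2c23 and Cyp2e1 thus shared no match, and the strings found at Cyp2e1 are common.

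Cyp2d4 and Cyp2d2 belong to the Cyp2d subfamily, which oxidises basic drugs. Cyp2d4 had log ratios of strain 13 over SS of -1.15, 0.36 and -0.725 on HS and of -0.86, -0.14 and -0.545 on LS. Cyp2d2 had -0.81, 0.40 and -0.695 on HS and -0.59, 0.005 and -0.78 on LS. In both genes replicate 2 was the highest on each diet, and the pairs did not all lie on the same side of 0. Averaged over both diets, Cyp2d4 was at -0.51 (below 0 in 5 of 6 pairs; limma adjusted p = 0.0657) and Cyp2d2 at -0.41 (4 of 6; limma adjusted p = 0.103), and neither passed the test. Both values turned on single replicates. Without replicate 2 they were -0.82 and -0.72 and passed (limma adjusted p = 0.0156 and 0.0296), and without replicate 1 they were -0.26 and -0.27 (limma adjusted p = 0.356 and 0.398). On the forward arrays of the HS comparison alone both passed, Cyp2d4 at -1.23 and Cyp2d2 at -1.06 (limma adjusted p = 0.0137 and 0.0124, with 127 of 1276 probes called). On the dye-swap arrays alone they were at -0.31 and -0.16 (limma adjusted p = 0.31 and 0.554). Replicate 2, which was above 0 on HS, had no forward value for either gene, so the orientations covered different replicates. In replicates 1 and 3 the dye-swap values were -0.64 and -0.65 for Cyp2d4 and -0.51 and -0.37 for Cyp2d2.

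Of family 4, Cyp4f1 encodes a fatty acid omega-hydroxylase whose substrates in the rat include arachidonic acid and leukotriene B4. Its log ratios of strain 13 over SS were -1.005, 0.065 and -0.325 on HS and -0.25, -0.065 and -0.74 on LS. The mean over both diets was -0.39 (below 0 in 5 of 6 pairs; limma adjusted p = 0.0695, not called). Cyp4b1 encodes a fatty acid and xenobiotic hydroxylase that is abundant in lung. Its strain log ratios were 0.505, -0.135 and 0.16 on HS and -0.10, -0.235 and -0.295 on LS, so the diets differed in sign in replicates 1 and 3 and the mean over both was -0.02 (limma adjusted p = 0.902).

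Cyp2c6v1, a Cyp2c enzyme best known from rat liver, was the member furthest above 0 between strains. Its log ratios of strain 13 over SS were 0.15, 0.265 and 0.17 on HS and 0.405, 0.26 and -0.01 on LS. It was above 0 in 5 of 6 pairs, with a mean of 0.21 over both diets that missed the threshold (limma adjusted p = 0.0646); on dye-swap arrays alone it was 0.26 and passed (limma adjusted p = 0.0131), as did Cyp4f1 at -0.42 (limma adjusted p = 0.0157). Cyp2c6v1 and Cyp2c23, both of the Cyp2c subfamily, thus lay on opposite sides of 0 in 5 of 6 strain pairs. Cyp2f4, known for naphthalene oxidation in rat lung, averaged 0.07 on HS and 0.01 on LS (limma adjusted p = 0.749 and 0.961). Related P450 transcripts can hybridise to the same cDNA clone. The clone sequences are not used here, so this was not tested.

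The diet comparisons ask whether these enzymes differ between HS and LS within a strain. In strain 13, 0 of 8 members were called and 0% of 1287 probes were. At an unadjusted p below 0.05, 2 members (Cyp2c23 and Cyp2e1) and 9.25% of probes passed. In SS, 0 of 8 members were called against 2.82% of 1310 probes; at an unadjusted p below 0.05 there were 1 member (Cyp4b1) and 19.5% of probes. The members' median log ratio of HS over LS was -0.25 in strain 13 and -0.21 in SS, against 0.01 and -0.01 over all probes. In strain 13, 5 of 8 members were below 0 (45.7% of all probes), and in SS 8 of 8 were (51.7% of all probes). Beside this, 5 of 9 fibroblast and matrix markers were called higher on HS in SS (Mgp, Timp1, Col3a1, Col1a1 and Vim, at 0.37 to 0.95), as was the smooth muscle marker Tagln at 0.70 (1 of 3 tested), and the part of these markers in the members' values was not tested.

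Cyp2c23 had log ratios of HS over LS of -1.055, -0.355 and -0.755 in strain 13 and of 0.10, -0.745 and -0.72 in SS. The strain 13 pairs were all below 0, and in SS replicate 1 stood apart from the others. The mean was -0.72 ± 0.35 in strain 13 (SD, n = 3; limma adjusted p = 0.403), second from the lowest of 1287 probes, and -0.46 ± 0.48 in SS (SD, n = 3; limma adjusted p = 0.288). Without replicate 1 the SS value was -0.73 and passed the test (limma adjusted p = 0.0299), in a setting that called 134 of 1249 probes against 37 of 1310 with all replicates. The mean over both strains, an estimate added after the values had been seen, was -0.59 ± 0.40 (SD over 6 pairs; below 0 in 5 of 6; limma adjusted p = 0.0709). In that estimate 0 of 8 members were called, against 2.96% of 1249 probes, and 3 were at an unadjusted p below 0.05, against 21.1% of probes. Without replicate 1, Cyp2c23 was called there (-0.64, limma adjusted p = 0.014), as were 152 of 1163 probes.

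Cyp2e1 had log ratios of HS over LS of -0.51, -0.275 and -0.41 in strain 13 and of 0.345, -0.435 and -0.09 in SS. The mean was -0.40 ± 0.12 in strain 13 (SD, n = 3; limma adjusted p = 0.461) and -0.06 ± 0.39 in SS (SD, n = 3; limma adjusted p = 0.86). Cyp2d4 had -0.225, -0.455 and -0.275 in strain 13 and 0.27, -0.705 and -0.36 in SS, and Cyp2d2 had -0.295, -0.57 and -0.61 in strain 13 and 0.305, -0.465 and -0.56 in SS. Cyp4f1 was near -0.18 in each strain 13 pair (-0.185, -0.17 and -0.185), while its SS values were 0.29, -0.42 and -0.40. For Cyp2c23, Cyp2e1, Cyp2d4, Cyp2d2 and Cyp4f1 alike, replicate 1 of SS was above 0 and the other replicates below it. In these genes replicate 1 was also the lowest strain ratio on HS, at -1.845 for Cyp2c23. Across 1006 probes, replicate 1 deviations from the comparison means correlated at -0.67 between the SS diet and the HS strain comparison. Whether replicate 1 of both holds the same SS RNA on HS was not tested.

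Cyp4b1 was the member with the lowest p in SS. Its log ratios of HS over LS were 0.295, -0.005 and 0.14 in strain 13, against -0.39, -0.23 and -0.26 in SS. The values of the strains did not overlap, but the share of all probes without overlap is not given here. Forward and dye-swap arrays averaged 0.34 and -0.05 in strain 13, and -0.25 and -0.38 in SS. The mean was 0.14 ± 0.15 in strain 13 (SD, n = 3; limma adjusted p = 0.707) and -0.29 ± 0.09 in SS (SD, n = 3; limma adjusted p = 0.161). The difference of the diet ratio between strains was tested in the same fit as the mean of its estimate from the diet arrays and from the strain arrays. For Cyp4b1 it was 0.41, with 0.44 from the diet and 0.39 from the strain arrays (limma adjusted p = 0.083, not called). It was 0.64 on the forward arrays alone, where it passed the test (limma adjusted p = 0.0446), and 0.21 on the dye-swap arrays alone (limma adjusted p = 0.492). For this difference 0 of 8 members were called, against 0.43% of 1164 probes, and 1 member (Cyp4b1) was at an unadjusted p below 0.05, against 15.6% of probes. Cyp2c23 was at -0.28 (limma adjusted p = 0.55), Cyp2e1 at -0.25 (limma adjusted p = 0.408), and the other 5 between -0.08 and 0.04. The comparisons share SS RNA by the names of replicate 3, which the fit does not model.

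Cyp2c6v1 and Cyp2f4 were near 0 on both diet comparisons. Cyp2c6v1 averaged 0.04 ± 0.15 in strain 13 and -0.06 ± 0.23 in SS, and Cyp2f4 0.02 ± 0.15 and -0.01 ± 0.19 (SD, n = 3 each). Of the untested members, Cyp2c12, a female-predominant steroid hydroxylase of rat liver, had -0.89 on 1 array of strain 13 over SS on HS and -0.13 on 1 array of HS over LS in SS. Cyp2a3, an enzyme of rat lung and nasal tissue, had 1.00 on 1 array of HS over LS in strain 13. Single arrays carry no measure of error.

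Of the 8 members, 5 varied together across the 12 RNA pairs. Among Cyp2c23, Cyp2e1, Cyp2d4, Cyp2d2 and Cyp4f1, Pearson correlations ranged from 0.65 to 0.92, the highest between Cyp2c23 and Cyp2e1. With these 5, Cyp4b1 correlated at -0.71 to -0.44, Cyp2c6v1 at -0.39 to 0.06 and Cyp2f4 at 0.15 to 0.55. These are descriptions over 12 pairs that share RNAs and arrays. Of 862 probes with 12 values, those most like Cyp2c23 were Gatm, a creatine synthesis enzyme of the proximal tubule (Pearson 0.97, Spearman 0.86), Pzp (0.92 and 0.70), Cyp2e1 (0.92 and 0.87), Idi1 (0.90 and 0.93) and Mt3 (0.87 and 0.81). Those most like Cyp2e1 were Cyp2c23, Gatm (0.87 and 0.72), Pzp (0.87 and 0.73), Aadat (0.84 and 0.66) and Mt3 (0.84 and 0.76).

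Most proximal tubule markers lay below 0, as Cyp2c23, Cyp2e1, Cyp2d4, Cyp2d2 and Cyp4f1 did on average. Of 13 marker genes tested on HS between strains, 12 were below 0 and 1, Gatm, was called lower, and Aqp1 lay above 0 at 0.05. Over both diets 4 of 13 were called lower (Gatm at -0.87, Anpep at -0.53, Pdzk1 at -0.49 and Hao2 at -0.45), against 2 of 8 members. On LS 12 of 14 were below 0 and 0 were called. In the diet comparisons 12 of 14 were below 0 in strain 13 and 11 of 14 in SS, with 0 called in either. The mean of the 13 markers with all values was -0.72, -0.02 and -0.37 between strains on HS, -0.37, -0.04 and -0.42 on LS, -0.23, -0.31 and -0.32 between diets in strain 13, and 0.22, -0.32 and -0.33 in SS. In bulk RNA, fewer cells of a type, a differing share of kidney zones in the tissue and less RNA per cell cannot be told apart. Markers of the thick limb, distal tubule and collecting duct were above 0 for 9 of 9 genes on HS between strains, with 5 called higher (Atp1b1, Egf, Fxyd4, Scnn1a and Aqp3). In the same comparison 8 of 9 fibroblast and matrix markers were below 0, with Mgp and Vim called lower, as were 4 of 4 leukocyte markers, with Lyz2 called lower. The part of these other lists in the members' values was not tested.

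Across the 12 pairs the marker mean correlated with Cyp4f1 at 0.92, Cyp2d4 at 0.90, Cyp2d2 at 0.90, Cyp2c23 at 0.85 and Cyp2e1 at 0.81, and with Cyp2f4 at 0.33, Cyp2c6v1 at -0.11 and Cyp4b1 at -0.62. Cyp2c23 lay below the marker mean in 12 of 12 pairs, by a mean of -0.54 ± 0.30 (SD), and in the 6 strain pairs by -0.71 ± 0.23. Cyp2e1 lay below it in 6 of 6 strain pairs, by -0.26 ± 0.15, and in 9 of 12 overall. Cyp4f1 differed from the marker mean by -0.01 ± 0.15 over the 12 pairs. Single markers also lay away from their mean, ranging between strains over both diets from 0.06 for Aqp1 to -0.87 for Gatm. With the marker mean as a covariate, added after the values were seen, Cyp2c23 on HS was at -0.63 (limma adjusted p = 0.0787) and Cyp2e1 at -0.32 (limma adjusted p = 0.21). Over both diets they were at -0.55 (limma adjusted p = 0.057) and -0.28 (limma adjusted p = 0.152). In these fits 0 of 8 members were called, with 31 of 1350 probes called on HS and 23 of 1203 over both diets. The values of Cyp2d4, Cyp2d2 and Cyp4f1 on HS were then above 0, at 0.16, 0.27 and 0.10. The marker mean includes Gatm, the probe most like Cyp2c23 (Pearson 0.97), and itself averaged -0.37 between strains on HS. Smaller values and lost calls in these fits thus follow in part from the choice of covariate. A cause was not tested by them.

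**Figure D4:**
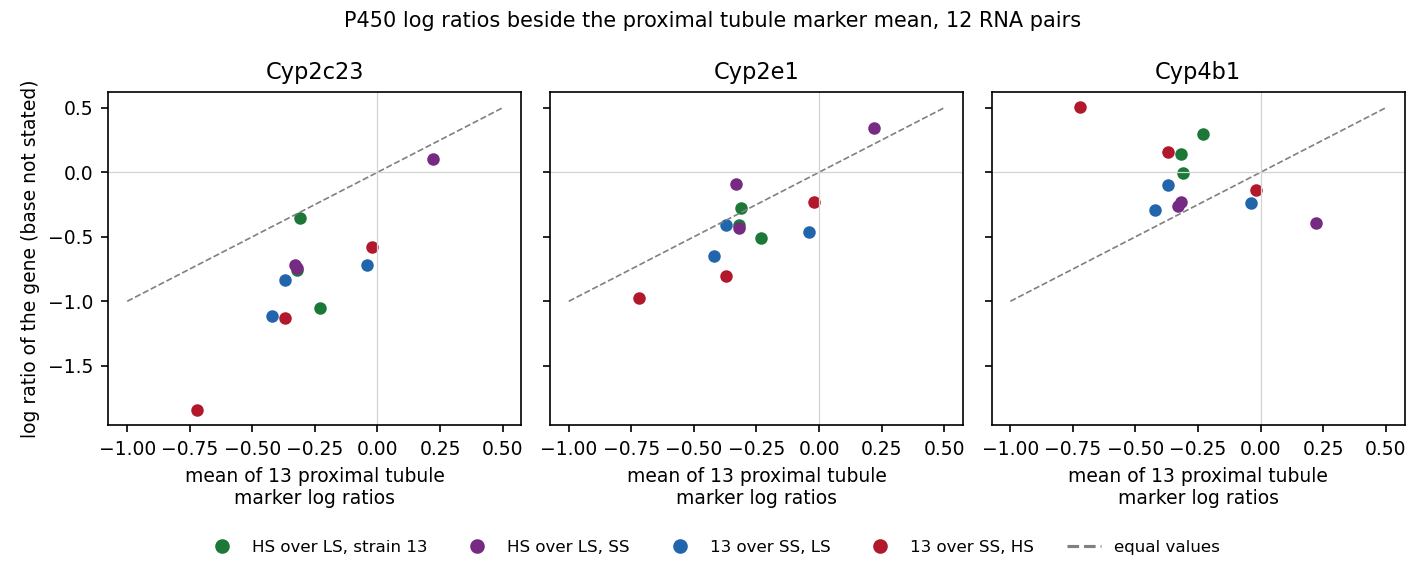
Log ratio of Cyp2c23, Cyp2e1 and Cyp4b1 (vertical axes, base not stated) against the mean log ratio of 13 proximal tubule markers (horizontal axes) in the 12 RNA pairs, coloured by comparison; the dashed line marks equal values. Cyp2c23 lies below the line in 12 of 12 pairs.

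Genes around these enzymes were described from lists chosen with earlier results of these data known. Of 29 other P450 enzymes and electron donors, 6 had a value, and 0 of the 4 or 5 tested were called in any of the 4 comparisons. Por, the reductase that serves the members, was at 0.15 on HS and -0.05 on LS between strains, and at -0.07 in strain 13 and -0.23 in SS between diets. Cyb5a, another electron donor, was at -0.04 on HS and -0.10 on LS between strains, and at -0.12 in strain 13 and -0.15 in SS between diets. Of 36 genes of arachidonic acid and eicosanoid metabolism outside P450, 12 had a value and 0 of 7 or 8 tested were called in the 4 comparisons. Among them Anxa1, a protein that inhibits phospholipase A2, was at -0.30 on HS and -0.53 on LS (limma adjusted p = 0.164 and 0.0904), and was called lower over both diets at -0.41 (limma adjusted p = 0.0128). Ephx2, the soluble epoxide hydrolase that degrades the epoxygenase products, was at 0.26 ± 0.19 on LS (SD, n = 2, limma adjusted p = 0.266). Over both diets Ephx2 was at 0.15 ± 0.17 (SD over 4 pairs, limma adjusted p = 0.232, not called).

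Among 36 peroxisomal and PPAR alpha responsive genes of fatty acid oxidation, of which Hao2 is also a proximal tubule marker here, 20 were tested on HS between strains. Fabp3, a fatty acid binding protein, and Acsl1, an acyl-CoA synthetase, were higher in strain 13 at 0.40 and 0.51 (limma adjusted p = 0.028 and 0.00636), and the racemase Amacr was lower at -0.60 (limma adjusted p = 0.0487). On LS 0 of 21 were called. Between diets Acsl1 was lower on HS in SS at -0.39 (limma adjusted p = 0.0105; 1 of 19 tested), and 0 of 20 were called in strain 13. Among 12 tested genes of xenobiotic conjugation, Aldh1a1 and the sulfotransferase Sult1a1 were higher in strain 13 on HS, at 0.24 and 0.57 (limma adjusted p = 0.0422 and 0.049), and 0 were called on LS. Aldh1a1, a retinaldehyde dehydrogenase, was lower on HS in SS at -0.27 (limma adjusted p = 0.0414), and 0 were called in strain 13. Over both diets, 6 of 20 peroxisomal and PPAR alpha responsive genes were called lower in strain 13, against 6.32% of 1203 probes. These were Amacr, Hao2, Acot1, Decr1, Hsd17b4 and Acadl, at -0.50 to -0.22, and 2 were called higher (Fabp3 and Acsl1). Of the 12 conjugation genes 1 was called lower, Gsta2, a glutathione transferase, at -0.67. Lower values over both diets were thus not particular to the P450 members.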

How the data were processed

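The authors' deposited table held 1 log ratio per probe and array (unit taken as other). The log base, any background correction, spot filter or normalization is not given in the sources used here. Array means lay within 0.0049 and medians within 0.04 of 0. Values were used as deposited. The design spoke of log ratios and named no base. Array number limits the precision. Of 3502 listed probes, 1561 held a value. Names came from the platform annotation and were updated with RefSeq (GRCr8), which gave 1 symbol for 1311 probes; 5 kept the platform's symbol, 22 had several and 223 had none.

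Forward and dye-swap arrays were averaged per replicate. limma 3.58.1 in R 4.3.3 (lmFit, eBayes) fitted 4 group means to the 12 pairs, tested against 0 (two-sided) for probes with 2 or more replicates, with Benjamini-Hochberg adjustment. Each member had 7 estimates: 4 comparisons, the difference of the diet ratio between strains, and means over both diets and both strains, these last added after the values were seen. Values per replicate were given for the tested members other than Cyp2f4, for Cyp2c6v1 between strains only. These are more members than the design had planned. Cyp2f4 was given by means. List genes were named where called or largest. The code was tested on simulated data. Members and lists were chosen with earlier results of these data known. Alternatives were leaving out replicates, arrays or orientations, a replicate block, rescaling, filters, separate fits and a marker covariate. Same-numbered deviations correlated between -0.67 and 0.43, with 6 of 18 above 0.1. They were 0.15 to 0.25 between the diet comparisons of the strains and -0.67 to -0.29 between the SS diet and the HS strain comparison. Between the SS diet and the LS strain comparison they were -0.04, -0.25 and 0.40. The strain 13 diet comparison gave -0.22, -0.32 and 0.11 with the LS and -0.08, 0.03 and 0.02 with the HS strain comparison. Between the strain comparisons they were 0.09, 0.43 and -0.02. The numbers may pair some of the comparisons, which was not tested. The fit without a block, as designed, was kept, and calls the block changed are given with it.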

Additional observations from a re-analysis of the deposited data

Results flagged for a closer look

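Cyp2d2 in the comparison of HS over LS in strain 13 had a dye-swap array of replicate 1 at 0.0, while the nearest of the other 5 arrays stood at -0.57. This gap made up 0.877 of the range of the 6 arrays, above Dixon's critical value of 0.625. It was 1 of 32 sets of arrays examined, and chance alone gives about 1 in 20. The Cyp2d2 value of -0.49 ± 0.17 (SD, n = 3; limma adjusted p = 0.557) was -0.59 without replicate 1 (limma adjusted p = 0.311) and -0.58 on forward arrays alone (limma adjusted p = 0.0564), both without this array.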

How the results depend on the processing

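Of 755 member values recomputed under 14 alternatives, 652 kept their direction and their side of the threshold, 15 lost the threshold, 26 gained it and 62 changed sign, all 62 of values that were not called. Cyp2c23 stayed below 0 under every alternative in the 4 comparisons, and Cyp2e1 in all but SS between diets.

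Counts over all probes are given in brackets. On HS between strains 2 members were called (81 of 1350 probes). The count was 1 with the replicate block (40 of 1350), 1 with equal spread (13 of 1350), 0 with the comparison fitted alone (0 of 1350), 4 on forward arrays alone (127 of 1276), 3 on dye-swap arrays alone (411 of 1295), 0 with the proximal tubule covariate (31 of 1350) and 0 to 1 with a replicate left out (0 to 27 probes). Over both strain comparisons 2 were called (181 of 1203). The count was 4 without missing values (220 of 1006), 4 on dye-swap arrays alone (375 of 1134), 0 with the covariate (23 of 1203) and 0 to 4 with a replicate left out (5 to 48 probes). On LS between strains (0) it was 1, Cyp2c23, without missing values, on forward arrays, on dye-swap arrays and with both orientations in 3 replicates (31 to 70 probes). Over both diet comparisons (0) it was 1, again Cyp2c23, with equal spread, without missing values, on forward arrays, on dye-swap arrays, with both orientations and without replicate 1, so that the range with a replicate left out was 0 to 1 (52 to 199 probes where it was 1). With both orientations in 3 replicates, only 5 members were tested on LS between strains and 2 over both diet comparisons. On forward arrays alone 7 were tested on LS and for the difference of diet ratios. Between diets in SS (0) it was 1 with the covariate (Cyp4b1; 50 of 1310) and 0 to 1 with a replicate left out. For the difference of diet ratios (0) it was 1, Cyp4b1, without missing values (39 of 1006) and on forward arrays (13 of 998). Without missing values fewer probes are adjusted for, and other causes were not tested. Under the replicate block Cyp2e1 on HS was at -0.67 (limma adjusted p = 0.0592), and the count over both strain comparisons was 3, with Cyp2c6v1 at 0.21 (limma adjusted p = 0.0411). The covariate, the fit without the sparsest array and the means over comparisons were chosen after seeing the data.

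For the 62 values that changed sign the cause was not tested. On dye-swap arrays alone these were Cyp4b1 at -0.05 between diets in strain 13, Cyp2c6v1 at 0.11 between diets in SS, Cyp4b1 at -0.1 between strains on HS, Cyp2c6v1 at 0.15 and Cyp2f4 at -0.04 over both diet comparisons, Cyp2d4 at 0.21, Cyp2d2 at 0.07 and Cyp4f1 at 0.06 for the difference of diet ratios. On forward arrays alone they were Cyp2c6v1 at -0.12 and Cyp2f4 at -0.02 between diets in strain 13, Cyp2f4 at 0.01 between diets in SS, Cyp2f4 at -0.15 between strains on LS, Cyp4b1 at 0.04 and Cyp2f4 at -0.01 over both diet comparisons, Cyp4b1 at 0.12 and Cyp2f4 at -0.07 over both strain comparisons. With equal spread it was Cyp2c6v1 at 0.01 over both diet comparisons. With median centring it was Cyp2f4 at -0.01 between strains on LS. With the proximal tubule covariate they were Cyp2d4 at 0.19, Cyp4b1 at -0.00097 and Cyp4f1 at 0.22 between diets in strain 13, Cyp2d2 at 0.0015, Cyp2f4 at 0.03, Cyp4f1 at 0.02 and Cyp2e1 at 0.07 between diets in SS, Cyp2d2 at 0.02 and Cyp4f1 at 0.04 between strains on LS, Cyp2d4 at 0.16, Cyp2d2 at 0.27, Cyp4b1 at -0.01 and Cyp4f1 at 0.1 between strains on HS, Cyp2d4 at 0.09, Cyp2c6v1 at 0.0018 and Cyp4f1 at 0.12 over both diet comparisons, Cyp2d4 at 0.07, Cyp2d2 at 0.14 and Cyp4f1 at 0.07 over both strain comparisons, Cyp2d4 at 0.19, Cyp2d2 at 0.12 and Cyp4f1 at 0.13 for the difference of diet ratios. Without the array of the conflicting title it was Cyp2f4 at -0.01 over both diet comparisons. Without the sparsest array it was Cyp2f4 at -0.02 for the difference of diet ratios. With a replicate left out, the ranges that crossed 0 were Cyp2f4 -0.04 to 0.1 and Cyp2c6v1 -0.04 to 0.11 between diets in strain 13, Cyp2f4 -0.1 to 0.09, Cyp2e1 -0.26 to 0.13 and Cyp2c6v1 -0.19 to 0.04 between diets in SS, Cyp2f4 -0.09 to 0.1 between strains on LS, Cyp2f4 -0.04 to 0.17 between strains on HS, Cyp2c6v1 -0.11 to 0.07 and Cyp2f4 -0.05 to 0.04 over both diet comparisons, Cyp4b1 -0.13 to 0.07 and Cyp2f4 -0.01 to 0.09 over both strain comparisons, Cyp2d4 -0.22 to 0.16, Cyp2d2 -0.2 to 0.08, Cyp4f1 -0.21 to 0.25, Cyp2c23 -0.55 to 0.12, Cyp2f4 -0.09 to 0.19 and Cyp2c6v1 -0.02 to 0.08 for the difference of diet ratios.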

Other observations

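A probe with values on 24 arrays carries several Cyp4a symbols and so was no member and cannot be given 1 gene name; enzymes of the Cyp4a subfamily hydroxylate the end of fatty acid chains. Its log ratios of strain 13 over SS were -1.11, -0.21 and -0.50 on HS and -0.495, -0.20 and -0.575 on LS, all below 0. The mean was -0.61 ± 0.46 on HS (SD, n = 3; limma adjusted p = 0.0646) and -0.42 ± 0.20 on LS (SD, n = 3; limma adjusted p = 0.184). Over both diets it was -0.52 ± 0.33 (SD over 6 pairs) and passed the test (limma adjusted p = 0.0199), in an estimate added after the values had been seen. Its log ratios of HS over LS were -0.41, -0.64 and -0.69 in strain 13 and 0.125, -0.615 and -0.725 in SS, where replicate 1 again stood above 0.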
